A study of Mus musculus with 10 samples.

Results

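The AIM2-like receptors of the mouse Ifi200 cluster were examined in dendritic cells of Ptbp1-deficient mice and of wild-type (WT) mice. The group was chosen by symbol and has 9 members, Ifi203, Ifi204, Ifi205, Ifi207, Ifi209, Ifi211, Ifi213, Mndal and Aim2, of 19178 genes in the deposited count table. All 9 members were in the table and all passed the filter on low counts. Dendritic cells take up antigen and prime T cells, and Ptbp1 encodes polypyrimidine tract-binding protein, a splicing regulator. The first group held 5 poly(A) RNA libraries labelled Ptbp1 deficient and the second 5 libraries labelled WT, all from mice aged 8 to 10 weeks. The labels name no strain, sex, tissue, Cre driver or altered exon. Nor do they state whether the libraries came from separate mice, so the spread behind the p-values may be technical.

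AIM2-like receptors, also called PYHIN proteins, are built from a pyrin domain, which binds other pyrin domains, and one or more HIN domains, which bind DNA. Aim2 binds double-stranded DNA in the cytosol and assembles an inflammasome with the adaptor ASC (gene Pycard) and caspase-1, which leads to release of interleukin-18 and interleukin-1 beta and to pyroptosis. Several other members are nuclear or cytosolic DNA-binding proteins that act on the STING pathway or on transcription, and most genes of the cluster are induced by interferon. The cluster has expanded and diverged in the mouse, and reads of its close copies are not always separable.

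Ptbp1 itself stood at 75.0, 73.4, 74.6, 73.2 and 75.7 CPM (counts scaled to library size) in deficient replicates 1 to 5, against 259, 296, 312, 309.6 and 294 CPM in WT replicates 1 to 5. Each label thus matched the level of its targeted gene. CPM here is TMM-normalized, which scales out differences in library composition. Deficient libraries held 61759378 to 92697815 counts in genes, against 50516163 to 66153758 for WT, and every member had at least 612 counts in every library, so counting error was small beside the spread between libraries. Of 11 dendritic cell markers 4 were higher and 1 lower in deficient cells, against 21.9% higher and 23.1% lower of all genes tested. Their summed level was 34624 to 37584 CPM in deficient libraries and 29018 to 35326 CPM in WT libraries. Most of it came from Cd74, H2-Ab1 and H2-Aa, which averaged 13828, 8999 and 7049 CPM in deficient cells. In WT cells these averaged 13470, 8395 and 5814 CPM. The 17 macrophage and monocyte markers summed to 769.9 to 1436 CPM in deficient libraries and 1923 to 4964 CPM in WT libraries. WT replicates 1 and 5 stood apart in these markers, with 3230 and 4964 CPM, against 1923 to 2020 CPM in the other WT libraries.

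The members lie on chromosome 1 of GRCm38 between 173350879 and 174031810, an interval of 681 kb that has 22 annotated genes, 17 of them in the count table. In order along the chromosome the members are Aim2 (173350879 to 173466040, plus strand), Ifi213 (173566283 to 173599274, minus), Ifi209 (173630917 to 173647928, plus), Ifi207 (173723427 to 173741747, minus), Ifi204 (173747293 to 173766943, minus), Mndal (173849126 to 173942491, minus), Ifi211 (173896345 to 173913046, minus), Ifi203 (173920407 to 173942672, minus) and Ifi205 (174011998 to 174031810, minus). All 9 are annotated as protein coding. The annotated span of Mndal covers Ifi211 and overlaps Ifi203, but only 37 exon bases are shared with Ifi203, and no exon base of Aim2 overlaps another gene. Another 5 genes of the family in the table are Ifi206, Ifi214, Ifi208, the pseudogene Ifi203-ps and Ifi202b. The remaining 3 genes of the 17 are Cadm3, whose span overlaps that of Aim2, the pseudogene Gm18445 and the miRNA gene Gm44339, which lies within Ifi209 on the opposite strand.

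The start regions of the cluster are shown here because many of its genes share 1 motif. RefSeq start sites of GRCm38.p6 gave 14 windows of 250 bases upstream for 12 genes of the locus, 8 of them members, and Ifi204 had none. The motif TTTCNNTTTC, the core of the interferon-stimulated response element, was searched on both strands. It was present in 7 of 10 member windows, belonging to 6 of 8 member genes, against 2.98% of all 32851 windows of the same length. Some of the windows are near copies, so they are not independent matches: 6 of the 91 pairs had over 85% of bases identical, with a median over all pairs of 55.2% and a range of 6.0% to 94.8%. Each line below gives 30 bases on the gene's strand, 5′ to 3′, with the 10 bases of the match in capitals.
Ifi213: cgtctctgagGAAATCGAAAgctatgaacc
Ifi207: cctagccaggGAAATCGAAAattaagaaca
Mndal: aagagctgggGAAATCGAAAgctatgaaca
Ifi211: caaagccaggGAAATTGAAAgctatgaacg
Ifi203: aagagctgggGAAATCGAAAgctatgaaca
Ifi205: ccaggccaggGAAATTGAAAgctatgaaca
Ifi206: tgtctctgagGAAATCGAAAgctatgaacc
Ifi214: agtctctgagGAAATCGAAAgcgatgcact
Ifi208: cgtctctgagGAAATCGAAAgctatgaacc

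These stretches lie on chromosome 1 at chr1:173599326-173599355 for Ifi213, chr1:173741831-173741860 for Ifi207, chr1:173880204-173880233 for Mndal and chr1:173913064-173913093 for Ifi211. Those of Ifi203, Ifi205, Ifi206, Ifi214 and Ifi208 are at chr1:173942508-173942537, chr1:174031870-174031899, chr1:173491339-173491368, chr1:173536017-173536046 and chr1:173673597-173673626. The match lay between 26 and 134 bases before the start. A second Mndal start had another match of the motif, TTTCTCTTTC, and a second Ifi203 start had no match. Both Mndal starts are from RefSeq and lie inside the longer annotated span of the gene, which ends at 173942491. Annotated exons covered 118 and 211 of the 250 bases of the first and second Mndal windows. They covered 55 bases of the Ifi205 window and at most 33 bases of any other window. The motif GGAANNGAAA, a composite of an ETS and an interferon regulatory factor half-site, was in 0 of 10 member windows and in 2.30% of all windows. A match is a string of letters and does not show that a factor binds there.

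Aim2 and Ifi209 were the members that had a window but no match of TTTCNNTTTC in any window. Ifi202b, among the other genes of the locus, also had a window without a match, and its log2 fold change was 2.67. Whether the motif bears on the fold changes was not tested. The Ifi209 window was nearly the same as that of Ifi214, with 237 of 250 bases identical, and differed from it inside the motif by G1T, counted from 1 at the 5′ end of the 10-base match in Ifi214. The windows of this pair are printed because they carry that difference, at chr1:173630609-173630858 for Ifi209 on the plus strand and chr1:173535958-173536207 for Ifi214 on the minus strand. Capitals mark the match in Ifi214.
Ifi209 core, with the differing base in capitals: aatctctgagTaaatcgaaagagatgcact
Ifi209: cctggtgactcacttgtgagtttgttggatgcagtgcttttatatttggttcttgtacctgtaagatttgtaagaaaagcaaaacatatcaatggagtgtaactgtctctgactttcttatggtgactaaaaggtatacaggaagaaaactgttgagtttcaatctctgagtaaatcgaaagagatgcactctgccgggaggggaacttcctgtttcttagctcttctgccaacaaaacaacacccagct
Ifi214: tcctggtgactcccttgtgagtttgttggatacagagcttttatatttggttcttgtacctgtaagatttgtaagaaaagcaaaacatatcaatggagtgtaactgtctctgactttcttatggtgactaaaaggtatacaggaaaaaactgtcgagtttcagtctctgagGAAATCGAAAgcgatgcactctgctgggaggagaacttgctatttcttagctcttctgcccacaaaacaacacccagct

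Of the 9 members, 8 were higher in deficient than in WT cells and Aim2 was lower. A gene was called at an adjusted p under 0.05 in edgeR's quasi-likelihood test, adjusted by Benjamini-Hochberg over the 18248 genes tested. By that rule 21.9% of all genes tested were higher, 23.1% were lower and 45.0% were called in either direction. The 5 deficient libraries did not overlap the 5 WT libraries for any of the 9 members, 8 of them higher and 1 lower, whereas among all genes tested 33.4% showed no overlap, 17.2% higher and 16.2% lower. In the deposited FPKM values, tested with limma on log2(FPKM + 1), the same 8 members were higher and Aim2 lower, against 20.3% of all identifiers higher and 27.2% lower. Ifi204, Ifi205, Ifi211 and Ifi213 were called with a rise over 2-fold, as were 3.34% of all genes tested. The median log2 fold change over the 9 members was 0.92, against -0.03 over all genes tested. Fold changes of the members that rose ran from 1.33-fold for Ifi209 to 3.04-fold for Ifi204. In bulk RNA a change in the share of a cell type and a change of RNA per cell cannot be told apart, and this holds for every result here.

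**Figure D1:**
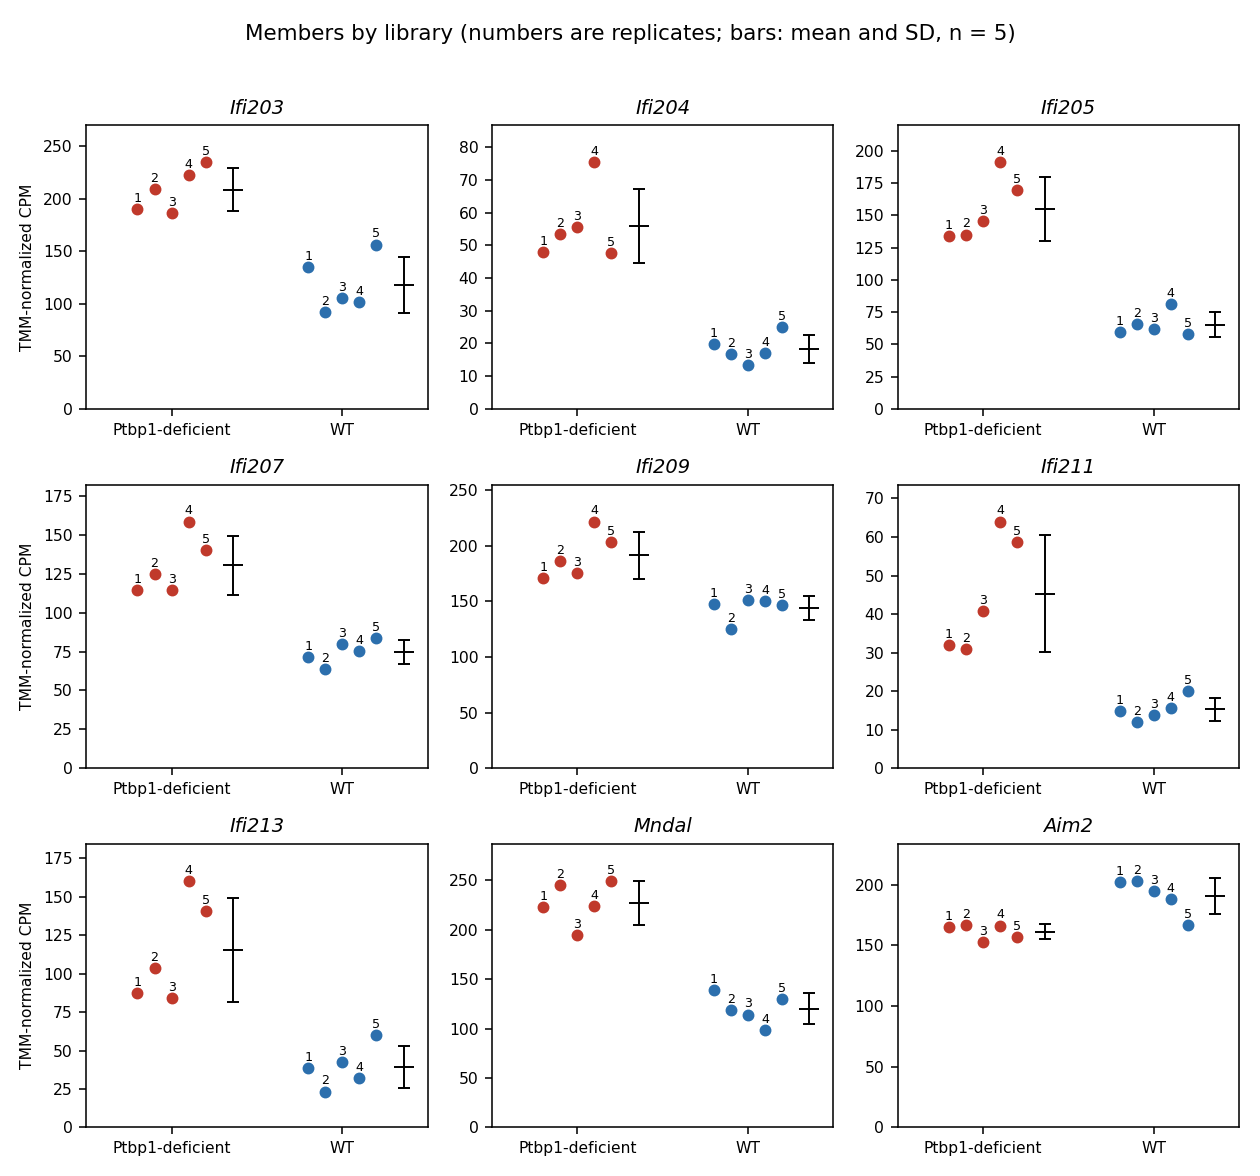
TMM-normalized CPM of the 9 members in each library, with Ptbp1-deficient libraries in red on the left and WT libraries in blue on the right of each panel; numbers are replicates, and black bars are the mean and SD of 5 libraries. For 8 members every deficient point lies above every WT point, and for Aim2 every deficient point lies below, by a margin of 166 against 167 CPM at its narrowest.

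Ifi204, Ifi211 and Ifi213 had the steepest rises, each close to 3-fold. Ifi204 encodes p204, the mouse protein usually set beside human IFI16 as a DNA sensor upstream of STING. It stood at 47.9, 53.4, 55.6, 75.4 and 47.5 CPM in deficient replicates 1 to 5, against 19.8, 16.7, 13.4, 17.1 and 24.9 CPM in WT replicates 1 to 5. Deficient replicate 4 was the highest and WT replicate 5 was the highest of its group, with a clear gap between genotypes. The means were 56.0 ± 11.4 CPM in deficient cells and 18.4 ± 4.28 CPM in WT cells (SD, n = 5 each), a log2 fold change of 1.60 (SE 0.17, edgeR adjusted p = 1.7e-05).

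Ifi211, which RefSeq also lists under the older symbol Mnda, stood at 32.0, 31.0, 40.8, 64.0 and 58.7 CPM in deficient replicates 1 to 5, against 14.9, 11.9, 13.7, 15.6 and 20.1 CPM in WT replicates 1 to 5. Deficient replicates 4 and 5 were well above replicates 1 and 2 of the same genotype. The log2 fold change was 1.57 (SE 0.22, edgeR adjusted p = 0.00013). Ifi213, also listed as Pydc4, stood at 87.3, 103, 84.4, 160.4 and 141 CPM in deficient cells, against 38.4, 23.3, 42.4, 31.9 and 59.9 CPM in WT cells. Again deficient replicates 4 and 5 were the high ones, and WT replicate 5 was the closest to the deficient group. Its log2 fold change was 1.56 (SE 0.25, edgeR adjusted p = 0.00036). Both genes were called without deficient replicates 4 and 5, with log2 fold changes of 1.18 (SE 0.16) for Ifi211 and 1.23 (SE 0.24) for Ifi213.

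Ifi205, whose product p205 has been tied in mouse macrophages to transcription of the ASC gene, rose 2.38-fold. It stood at 134, 135, 146, 191 and 169.6 CPM in deficient replicates 1 to 5, against 59.3, 65.4, 61.7, 81.5 and 57.8 CPM in WT replicates 1 to 5. Replicate 4 was the highest of each genotype, though the labels do not pair libraries by number. The 95% interval of its log2 fold change was 1.02 to 1.48 (edgeR adjusted p = 8.1e-06), and this was the smallest adjusted p among the members. Of the 150-base stretches in the annotated Ifi211 transcripts, 32.3% are also found in Ifi205 and 14.1% in Ifi204, and 46.4% in any other gene, so the counts of Ifi211 are the least certain of the 9. For the other members that share was between 0% and 12.6%, and it was 0% for Ifi207 and Aim2.

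Mndal, Ifi203 and Ifi207 rose by less than 2-fold. Mndal encodes a relative of the myeloid nuclear differentiation antigen. It stood at 223, 245, 194, 224 and 249.7 CPM in deficient replicates 1 to 5, against 139, 119, 114, 98.8 and 130.4 CPM in WT replicates 1 to 5. The lowest deficient library, replicate 3, was still well above the highest WT library, replicate 1. This was a log2 fold change of 0.92 (SE 0.09, edgeR adjusted p = 1.4e-05).

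Ifi203 stood at 190.1, 209.6, 187, 222 and 235 CPM in deficient replicates 1 to 5, against 135, 92.5, 106, 102 and 156 CPM in WT replicates 1 to 5. WT replicates 1 and 5, the libraries with the highest macrophage marker levels, were also the WT libraries highest in Ifi203. The Ifi203 log2 fold change was 0.82 (SE 0.13, edgeR adjusted p = 0.00040), and it was 1.06 (SE 0.08, adjusted p = 1.95e-06) without those libraries. Ifi207, which has been linked in the mouse to STING and to cytokine transcription, stood at 115, 125, 115, 159 and 140.5 CPM in deficient cells, against 71.2, 63.7, 80.0, 75.5 and 83.8 CPM in WT cells. No deficient library came near the WT range. Its log2 fold change was 0.80 (SE 0.10, edgeR adjusted p = 6.0e-05), and it shares no 150-base stretch with the annotated transcripts of another gene.

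Ifi209, also listed as Pyhin1, had the smallest rise, 1.33-fold. It stood at 171, 186, 176, 222 and 204 CPM in deficient replicates 1 to 5, against 148, 125, 151, 149.9 and 147 CPM in WT replicates 1 to 5. WT replicate 2 was below the other 4 WT libraries, which lay close together. Its log2 fold change was 0.41 (SE 0.08, 95% interval 0.26 to 0.56, edgeR adjusted p = 0.0012). Among the members that rose, its interval met that of Ifi203, 0.56 to 1.08, and lay below all the others, of which the nearest was that of Ifi207, 0.61 to 1.00.

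Aim2 was the only member that fell, to 84.6% of the WT level. It stood at 165, 166, 152, 166 and 157 CPM in deficient replicates 1 to 5, against 202, 203, 195, 188 and 167 CPM in WT replicates 1 to 5. WT replicate 5 lay close to the deficient libraries, and the other 4 WT libraries were clearly above them. The means were 162 ± 6.45 CPM in deficient cells and 191 ± 14.7 CPM in WT cells (SD, n = 5 each), a log2 fold change of -0.24 (SE 0.06, edgeR adjusted p = 0.0039). The gene's direction was the same under RLE and upper-quartile normalization and in the deposited FPKM values.

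**Figure D2:**
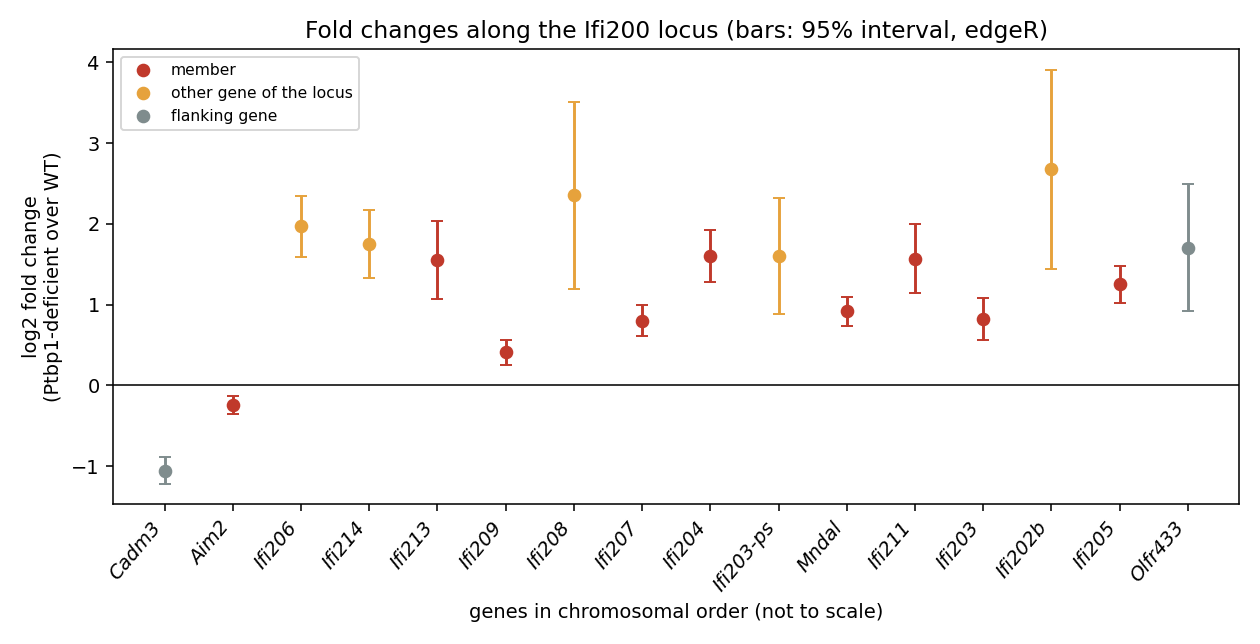
Log2 fold change of the family's genes at the locus in chromosomal order, Ptbp1-deficient over WT, with 95% intervals from edgeR's fit; red points are members, orange points the other 5 genes of the family and grey points the nearest tested protein-coding genes on either side, with Gm18445 and Gm44339 not drawn. The values run between -1.05 for Cadm3 and 2.67 for Ifi202b, and Aim2 and Cadm3, at one end of the locus, are the points below 0.

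The order of the members by level changed with genotype. Levels of different genes are compared here in the deposited FPKM values (fragments per kilobase and mapped depth), which take length into account. In deficient cells Mndal and Ifi205 were at the top, with 121 ± 12.8 and 120.2 ± 18.3 FPKM, and their ranges overlapped. Aim2 followed at 82.3 ± 7.38 FPKM, below Ifi205 and above Ifi203 in every deficient library. In WT cells Aim2 was the highest at 103.5 ± 7.24 FPKM, above Mndal at 66.1 ± 9.03 FPKM and Ifi205 at 51.9 ± 4.93 FPKM (SD, n = 5 for each value). Ifi204 was the lowest member in both genotypes, with 27.3 ± 5.28 FPKM in deficient cells and 9.53 ± 2.12 FPKM in WT cells, and its range overlapped that of the next gene in each. In the middle of the order Ifi203, Ifi211 and Ifi209 overlapped in deficient cells, and Ifi211, Ifi207 and Ifi213 overlapped as neighbours in WT cells.

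**Figure D3:**
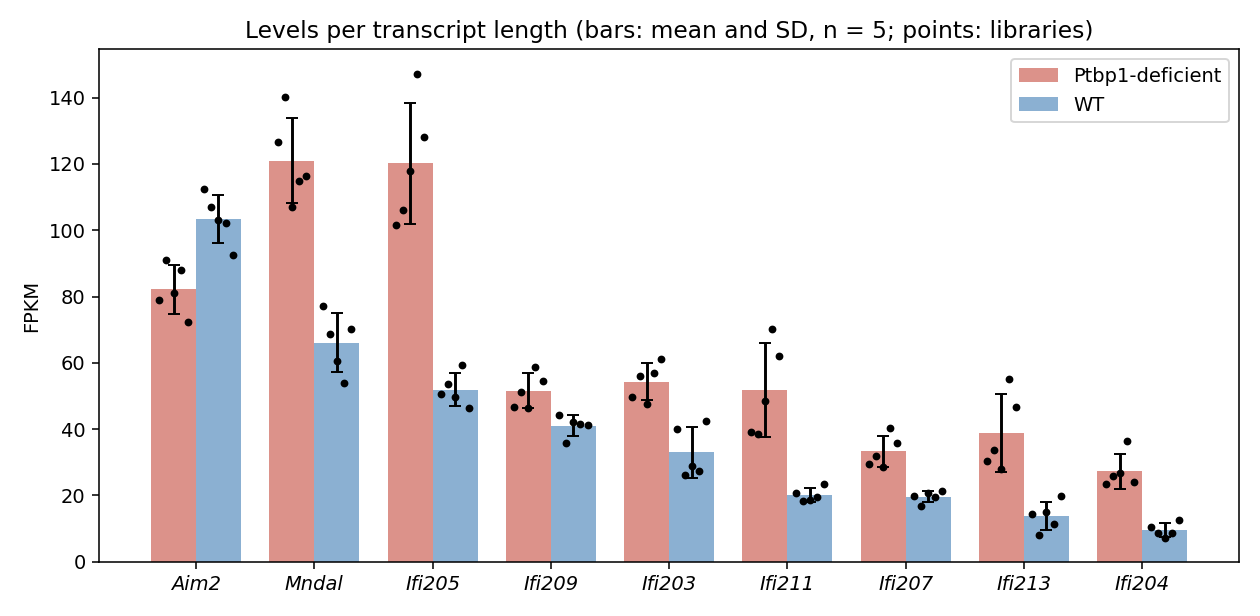
Deposited FPKM of the 9 members, ordered by their WT mean, with Ptbp1-deficient in red left of WT in blue; bars are means with SD of 5 libraries and black points are libraries. Aim2 is the tallest WT bar at 103.5 FPKM, while Mndal and Ifi205 are the tallest deficient bars at 121 and 120.2 FPKM.

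Summed, the 9 members held 1291 ± 147 CPM in deficient cells and 786 ± 51.3 CPM in WT cells (SD, n = 5 each). With their counts added to 1 row before the fit, which removes the effect of reads exchanged among paralogs in the list, the log2 fold change was 0.71 (SE 0.08). Aim2 made up 12.6 ± 1.35% of the summed CPM in deficient cells and 24.4 ± 3.04% in WT cells. Ifi209 made up 14.8 ± 0.285% and 18.3 ± 1.16% in deficient and WT cells. Ifi204 made up 4.33 ± 0.662% in deficient cells and 2.33 ± 0.430% in WT cells, and Ifi213 made up 8.78 ± 1.56% and 4.92 ± 1.44% in the same order. CPM is not divided by length, so these are shares of reads and not of molecules.

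The other 5 measured genes of the family at the locus were also higher in deficient cells. Ifi206 stood at 50.5, 54.4, 41.8, 60.7 and 49.7 CPM in deficient replicates 1 to 5, against 10.6, 9.15, 14.2, 11.4 and 20.2 CPM in WT replicates 1 to 5. The groups were far apart, with a log2 fold change of 1.97 (SE 0.19, edgeR adjusted p = 1.0e-05). Ifi214 stood at 17.1, 17.1, 15.2, 14.6 and 7.36 CPM in deficient cells, against 3.39, 5.25, 3.59, 4.20 and 4.68 CPM in WT cells (log2 fold change 1.76, SE 0.21, edgeR adjusted p = 5.4e-05). Deficient replicate 5 was the low one there, the reverse of its place in Ifi211 and Ifi213. Ifi214 and Ifi209, the pair with nearly the same start region, had fold changes of 3.38 and 1.33. Whether the differing base in the motif bears on this was not tested. Of the 150-base stretches of Ifi209, 9.28% are also in Ifi214.

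Ifi202b, Ifi208 and Ifi203-ps rose on average but overlapped between genotypes through replicate 5. Ifi202b encodes p202, which has HIN domains and no pyrin domain and can inhibit Aim2 in the mouse, and its level is known to differ widely between inbred strains. It stood at 13.1, 13.3, 14.4, 9.35 and 2.60 CPM in deficient replicates 1 to 5, against 1.62, 3.41, 1.70, 1.48 and 0.0799 CPM in WT replicates 1 to 5. Replicate 5 was the lowest of each genotype, and in WT it held 5 counts. The log2 fold change was 2.67 (SE 0.63, edgeR adjusted p = 0.0046), and it did not pass once the macrophage score, the mean level of those markers, was added to the fit (1.77, adjusted p = 0.068).

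Ifi208, also listed as Pydc3, stood at 12.02, 14.7, 9.44, 12.6 and 1.91 CPM in deficient replicates 1 to 5, against 2.08, 0.523, 1.22, 1.21 and 4.81 CPM in WT replicates 1 to 5. Here replicate 5 was the lowest of the deficient group but the highest of WT, so the groups overlapped. The log2 fold change was 2.35 (SE 0.59, edgeR adjusted p = 0.0066). Ifi203-ps was at 4.70, 6.08, 4.73, 3.35 and 1.78 CPM in deficient cells, against 1.23, 2.13, 1.54, 1.34 and 0.527 CPM in WT cells (log2 fold change 1.61, SE 0.37, edgeR adjusted p = 0.0038). Its replicate 5 was low in both genotypes, as for Ifi202b, and it did not pass with the macrophage score in the fit (0.75, adjusted p = 0.13). Of the remaining genes in the interval, Gm18445 had few counts, 3 to 67 per library, and was at 0.499 ± 0.182 CPM in deficient cells and 0.168 ± 0.0747 CPM in WT cells (SD, n = 5 each, edgeR adjusted p = 0.0061), with no overlap between the groups. Gm44339 was at 1.39 ± 0.348 CPM in deficient cells and 0.889 ± 0.247 CPM in WT cells, with overlap (edgeR adjusted p = 0.043, and up to 0.30 in alternative settings). It shares no exon base with Ifi209, but without strand its reads cannot be told apart from unspliced reads of Ifi209. The labels name no strain, and whether the libraries differ in their haplotype at this locus was not tested.

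The genes next to the locus went in opposite directions. Olfr433, an olfactory receptor gene beyond Ifi205, stood at 34.6, 33.7, 27.7, 23.03 and 12.6 CPM in deficient replicates 1 to 5, against 6.59, 15.6, 8.84, 6.99 and 2.48 CPM in WT replicates 1 to 5 (log2 fold change 1.70, SE 0.40, edgeR adjusted p = 0.0047). Replicate 5 was again the lowest of each genotype, and the groups overlapped. With the macrophage score in the fit its adjusted p was 0.14. Cadm3, a cell adhesion gene whose span runs into that of Aim2 on the opposite strand, stood at 66.1, 67.6, 67.3, 69.0 and 82.7 CPM in deficient cells, against 157, 146, 156, 153 and 119.8 CPM in WT cells. It fell by 1.05 on the log2 scale (SE 0.08, edgeR adjusted p = 2.5e-06), the same direction as Aim2.

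**Figure D4:**
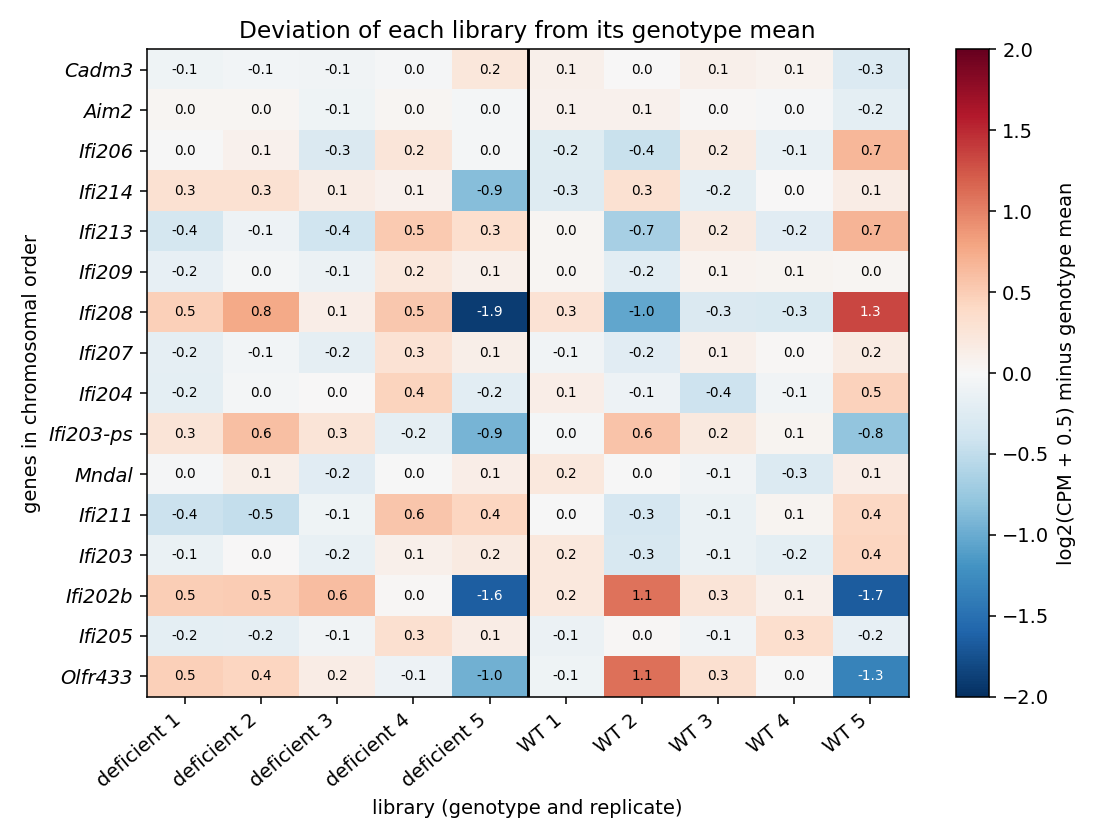
Deviation of each library from the mean of its own genotype, in log2(CPM + 0.5), for the family's genes at the locus and its flanks in chromosomal order, with deficient libraries left of the line and WT libraries right of it. Deficient replicate 5 is low for Ifi208 (-1.9), Ifi202b (-1.6) and Olfr433 (-1.0), while WT replicate 5 is low for Ifi202b (-1.7) and Olfr433 (-1.3) and high for Ifi208 (1.3).

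Within a genotype, most members other than Aim2 tended to vary together from library to library. Over the 10 libraries, after each genotype mean was subtracted, 28 of 36 pairs of members had a positive Pearson correlation, with a median of 0.44 and a range of -0.50 to 0.93. The share of positive pairs among other genes was not computed. Aim2 ran against Ifi203 (-0.50), Ifi211 (-0.48), Ifi213 (-0.46), Ifi204 (-0.36), Ifi207 (-0.32) and Ifi209 (-0.12). With Ifi205 (0.08) and Mndal (0.11) its correlation was weakly positive. The closest pairs were Ifi207 with Ifi209 (r = 0.93) and Ifi207 with Ifi213 (r = 0.92). Averaged over the members, deficient replicate 4 was 0.28 above its genotype mean on the log2 scale and deficient replicate 1 was 0.18 below it, while WT replicate 5 was 0.22 above and WT replicate 2 was 0.20 below. The coefficient of variation in deficient cells was 3.99% for Aim2, 9.65% for Mndal and 33.7% for Ifi211. Ifi202b, Ifi203-ps and Olfr433 varied together, with correlations of 0.94 to 0.97 among themselves. Of the members, Aim2 went with them, at 0.81, 0.69 and 0.78 in that order. Ifi203 ran against each of them, with correlations of -0.87 to -0.81, as did Ifi213 (-0.82 to -0.78) and Ifi211 (-0.83 to -0.68). All values share their libraries and the same scaling, so they describe these 10 libraries only.

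The 5 genes outside the locus most like the members' mean deviation, among 10445 whose mean reached 5 CPM, were Gbp2 (r = 0.94), Fas (0.94), Vezt (0.91), Tapbpl (0.91) and Arhgap5 (0.89). These are the highest of 10445 correlations over 10 libraries, so high values can arise through the selection alone, and they were not tested. The 5 genes differed in their genotype difference. Gbp2, an interferon-induced guanylate-binding protein gene, was at 96.0 ± 23.2 CPM in deficient cells and 23.6 ± 4.52 CPM in WT cells (SD, n = 5 each, edgeR adjusted p = 3.9e-06), and Tapbpl, a tapasin-related gene, at 131 ± 11.4 CPM and 71.7 ± 3.33 CPM (edgeR adjusted p = 8.8e-07). Fas, a death receptor gene, was at 6.81 ± 0.828 CPM in deficient cells and 9.27 ± 0.964 CPM in WT cells (edgeR adjusted p = 0.0041). The groups overlapped for Fas, and with the macrophage score in the fit it did not pass (log2 fold change -0.26, adjusted p = 0.14). Vezt and Arhgap5 did not pass, with adjusted p-values of 0.45 and 0.061.

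Genes that act with Aim2 moved in both directions. Of the 14 measured genes of the adaptor, caspase and output list 8 were higher and 3 lower, with a median log2 fold change of 0.12. Among all genes tested 21.9% were higher and 23.1% lower. Pycard, which encodes ASC, was at 38.4, 36.4, 38.2, 35.7 and 38.1 CPM in deficient replicates 1 to 5, against 29.0, 27.1, 27.7, 29.2 and 25.9 CPM in WT replicates 1 to 5. The 2 ranges were narrow and apart, with a log2 fold change of 0.43 (SE 0.05, edgeR adjusted p = 2.0e-05). Casp1, the effector protease, rose 1.26-fold to 78.8 ± 2.31 CPM in deficient cells, against 62.4 ± 3.13 CPM in WT cells (edgeR adjusted p = 6.9e-05). Gsdmd, whose product forms the pyroptotic pore, rose by 0.26 on the log2 scale to 153 ± 6.39 CPM, against 128 ± 4.67 CPM in WT cells (edgeR adjusted p = 0.00036). Il18, a cytokine precursor cut by caspase-1, fell to 14.4 ± 2.09 CPM in deficient cells, against 31.9 ± 5.13 CPM in WT cells (log2 fold change -1.15, edgeR adjusted p = 2.1e-05). Il1b, the other such precursor, was at 130.0 ± 22.9 CPM in deficient cells and 144 ± 17.0 CPM in WT cells (edgeR adjusted p = 0.32).

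Among 10 measured inflammasome sensors other than Aim2, 0 were higher, 4 were lower and 6 did not pass. For comparison, 21.9% of all genes tested were higher and 23.1% were lower. These sensors had log2 fold changes with a median at -0.24. Their list includes the pseudogene Nlrp1c-ps, which averaged 60.5 CPM in deficient cells and 38.6 CPM in WT cells (edgeR adjusted p = 0.056). It also includes genes of low level. Naip1 averaged 0.344 and 0.422 CPM, and Nlrp1a 1.97 and 2.24 CPM, in deficient and WT cells. Naip6 and Naip5, sensors of bacterial flagellin, were at 80.5 ± 4.44 and 75.4 ± 4.45 CPM in deficient cells, against 118 ± 9.47 and 99.5 ± 8.82 CPM in WT cells, with edgeR adjusted p-values of 2.3e-05 and 0.00037. Mefv, which encodes pyrin, was at 130.3, 132, 88.1, 92.8 and 82.4 CPM in deficient replicates 1 to 5, against 174, 271, 258, 253 and 118 CPM in WT replicates 1 to 5 (log2 fold change -1.03, edgeR adjusted p = 0.0026). WT replicate 5 fell inside the deficient range. Nlrc4, the partner of the NAIP proteins, was at 41.2 ± 6.63 CPM in deficient cells and 57.6 ± 7.63 CPM in WT cells (edgeR adjusted p = 0.0055). The Naip genes are near copies of one another, so their counts may be exchanged among them.

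Of 17 measured genes of cGAS-STING signalling and DNA sensing 9 were higher and 1, Irf3, was lower, with a median log2 fold change of 0.21. For all genes tested these shares were 21.9% higher and 23.1% lower. Zbp1, a sensor of Z-form nucleic acid, stood at 165, 188, 172, 258 and 189 CPM in deficient replicates 1 to 5, against 34.0, 38.4, 42.2, 37.1 and 36.4 CPM in WT replicates 1 to 5 (5.17-fold, edgeR adjusted p = 1.4e-07). Irf7, the interferon regulatory factor that amplifies type I interferon, was 3.65-fold higher (edgeR adjusted p = 4.2e-07), the chromatin protein gene Hmgb2 2.03-fold and the dNTPase gene Samhd1 1.54-fold. Cgas, the cytosolic DNA sensor that makes cGAMP, was at 37.6 ± 1.65 CPM in deficient cells and 27.9 ± 3.68 CPM in WT cells (edgeR adjusted p = 0.0013). Tmem173, which encodes STING, was at 114 ± 7.34 CPM and 103 ± 5.95 CPM in deficient and WT cells (edgeR adjusted p = 0.047).

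Interferon signalling genes upstream of the family were higher more often than lower, 8 against 2 of 15, with a median log2 fold change of 0.42. Over all genes tested 21.9% were higher and 23.1% lower. Irf1, an interferon-induced transcription factor, stood at 364, 391, 372, 433 and 360.1 CPM in deficient replicates 1 to 5, against 194, 181, 194, 202 and 205 CPM in WT replicates 1 to 5. Replicate 4 was the highest deficient library, as it was for Ifi204, Ifi205, Ifi207, Ifi209, Ifi211 and Ifi213. Irf1 rose 1.97-fold (log2 fold change 0.97, SE 0.06, edgeR adjusted p = 3.5e-07), the deISGylase and feedback inhibitor gene Usp18 1.84-fold and Irf9, a subunit of the interferon-activated factor ISGF3, 1.34-fold. The receptor gene Ifnar1 was lower, at 134 ± 11.97 CPM in deficient cells and 181 ± 21.3 CPM in WT cells (edgeR adjusted p = 0.0015).

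**Figure D5:**
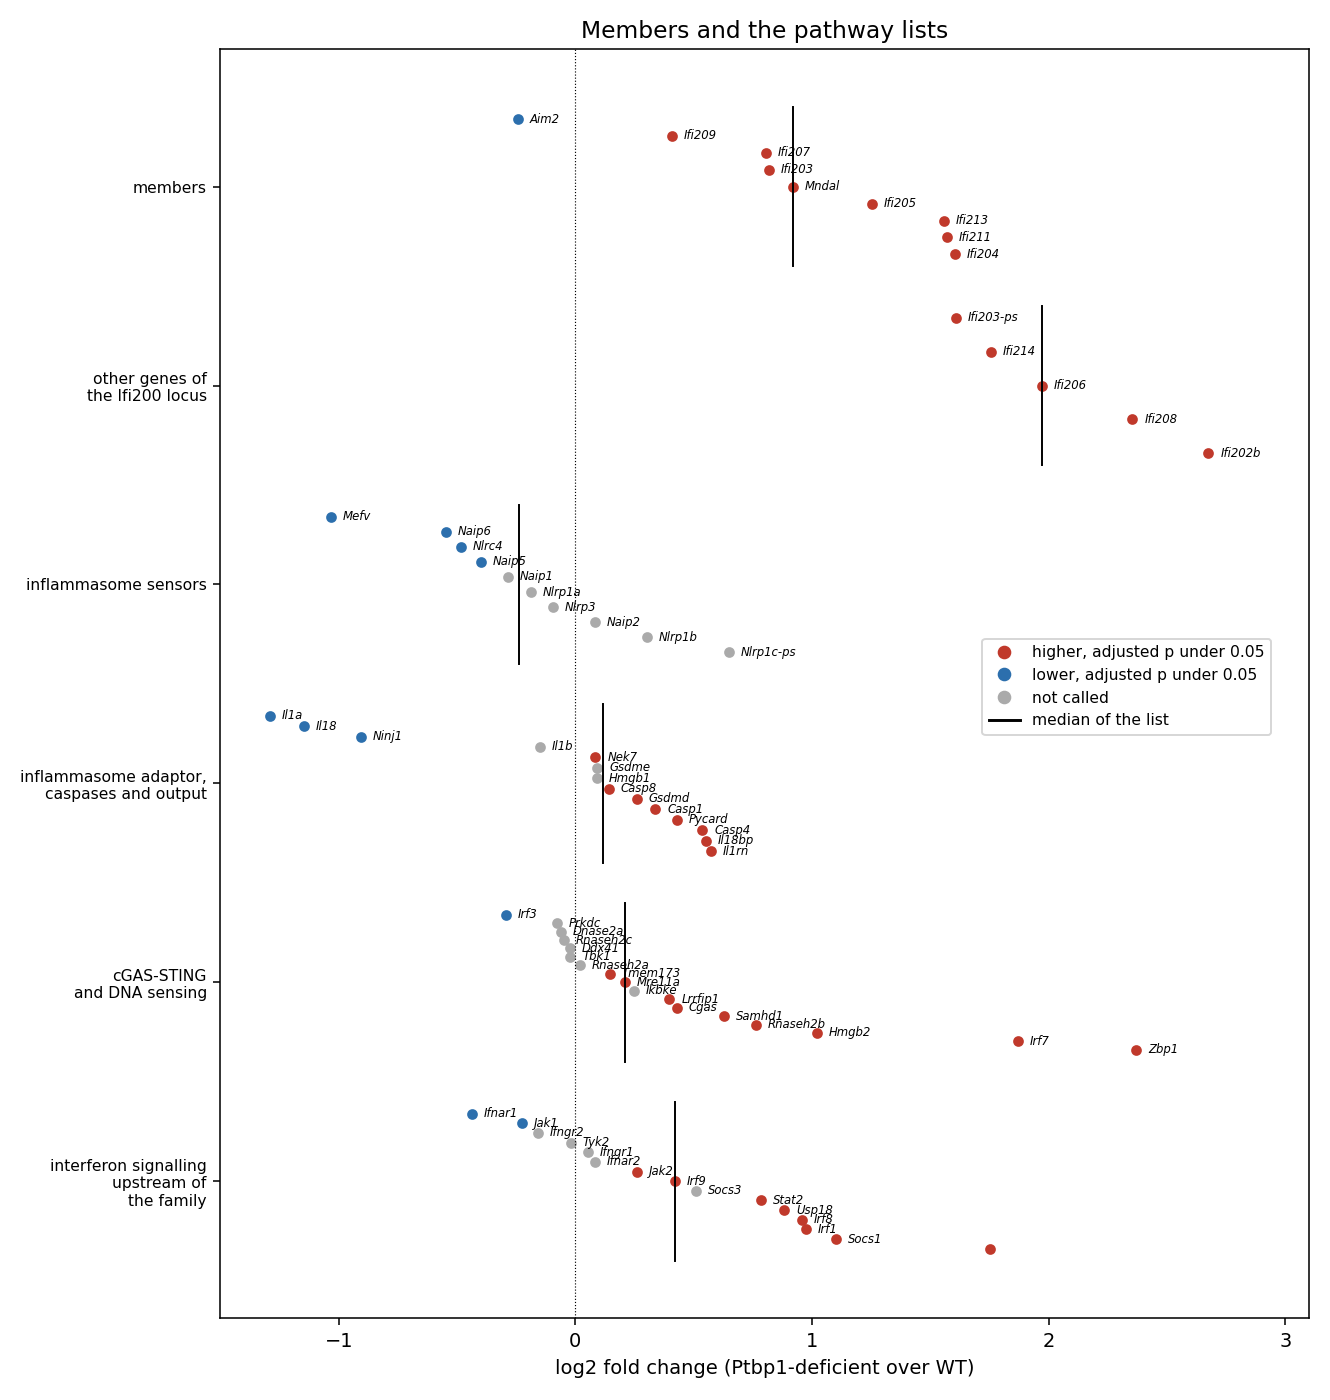
Log2 fold change, Ptbp1-deficient over WT, of each tested gene in the members, the other 5 genes of the family at the locus and 4 pathway lists, in red where higher and in blue where lower at an adjusted p under 0.05, with most points named; black lines are list medians. The medians are 0.92 for the members, 1.97 for the other 5 genes of the family, -0.24 for the other inflammasome sensors, 0.12 for the adaptor, caspases and output, 0.21 for cGAS-STING and DNA sensing and 0.42 for interferon signalling.

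Markers of cell types differed between the genotypes beside these results. Their counts stand beside 21.9% higher and 23.1% lower among all genes tested. Of 10 markers of cDC1, the cross-presenting dendritic cells, 9 were higher and 0 lower, and they summed to 6750 to 8241 CPM in deficient libraries and 3673 to 4933 CPM in WT libraries, so a shift among dendritic cell types and the rise of the members cannot be told apart. Of 17 macrophage and monocyte markers 13 were lower. With their mean level as a covariate the 8 rises and the fall of Aim2 were all called, with log2 fold changes of 0.52 for Ifi209, 2.02 for Ifi204 and -0.34 for Aim2. That mean level, in log2 CPM, separated the genotypes, at 4.01 to 5.62 in deficient and 5.79 to 7.39 in WT libraries. The fit therefore cannot part macrophage content from genotype. Without WT replicates 1 and 5 the same 9 members were called in the same directions. Of 14 NK and T cell markers 5 were higher and 2, Cd4 and Il7r, lower. The 5 were genes of NK and cytotoxic cells: the granzyme genes Gzma, at 53.1 ± 14.7 CPM in deficient cells and 4.31 ± 7.22 CPM in WT cells (edgeR adjusted p = 0.0035), and Gzmb, 10.8-fold higher, with Prf1 4.85-fold, Ncr1 4.30-fold and Klre1 3.48-fold higher. The list summed to 349.8 to 404 CPM in deficient libraries and 355 to 449 CPM in WT libraries, of which Cd4 alone averaged 248 and 333 CPM in deficient and WT cells. Of 12 B cell markers 9 were lower (median log2 fold change -1.44 over the list), and they summed to 478 to 554 CPM in deficient libraries and 436 to 1934 CPM in WT libraries, of which Ighm averaged 374 and 478 CPM in deficient and WT cells. Of 10 plasmacytoid dendritic cell markers 1 was higher and 6 lower, with sums of 284 to 335 CPM in deficient libraries and 336 to 731 CPM in WT libraries. Of 10 neutrophil markers 2 were lower, with sums of 126 to 220.2 CPM in deficient libraries and 128 to 933 CPM in WT libraries. The part of these 4 lists in the members' differences was not tested. Of 10 cDC2 markers 9 were lower, with sums of 1192 to 1470.3 CPM in deficient libraries and 1662 to 1889 CPM in WT libraries. The lists share genes. Irf8, called higher, is in the dendritic cell, cDC1 and interferon signalling lists. Irf4, called lower, is in the dendritic cell and cDC2 lists, and Batf3, not called, is in the dendritic cell and cDC1 lists.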

How the data were processed

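The deposited table of unnormalized counts has 19178 gene rows, and no value in it is below 2; genes below that are not analysed here. Per the submitters' processing notes, the authors used HISAT2, StringTie and DESeq2; the notes name GRCh38, a human build, although the identifiers are mouse Ensembl ones. Details not given in the sources used here are the counting tool and its strand setting. Reads kept out of gene rows as ambiguous were 1.78% to 1.94% and as not unique 4.51% to 5.08% of each library's counts, and reads outside genes 17.2% to 22.2%. The authors' deposited FPKM table lists 11968 identifiers, all 9 members included.

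Symbols and coordinates came from GENCODE M21 (GRCm38), which matched 99.3% of identifiers. After edgeR's filterByExpr, 18248 genes were fitted in edgeR 4.0.16 (R 4.3.3) with TMM and the quasi-likelihood test, genotype being the only term, and FPKM in limma 3.58.1. In simulated data for these 18248 genes, 45 of 50 genes changed 2-fold and 12 of 50 changed 1.25-fold were recovered, with 6 false calls. The simulation changed 50 genes per fold size, a far smaller share than the 45.0% of genes called here. Its recovery and false calls may thus not carry over to these data. Start regions are from RefSeq (GRCm38.p6) and were searched and compared with Biopython 1.88.

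Members, lists and tests were chosen with earlier results of these data known. Named genes were the members, the measured family genes of the locus, the nearest tested protein-coding gene on each side, up to 4 called genes with the smallest adjusted p per pathway list, and the 5 genes most correlated with the members. A gene of this rule and a motif searched are not reported here. Ptbp1, Cgas, Tmem173, Il1b, Irf3, Ifnar1, Gm18445, Gm44339 and single cell type markers were added after their values were seen. Alternatives were DESeq2 1.42.0, limma-voom, normalization by RLE or upper quartile, other filters, the replicate block, FPKM, a stricter threshold, 2 covariates and leaving out libraries.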

Additional observations from a re-analysis of the deposited data

Results flagged for a closer look

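In 76 groups of 5 libraries (38 named genes, 2 genotypes), 6 had a library set apart from the other 4 by over 0.71 of the range, and chance gives about 1 in 20. Ifi214 in deficient replicate 5 was at 7.36 CPM, with the next library at 14.6 CPM. Ifi209 in WT replicate 2 was at 125 CPM, with the next at 147 CPM. Cadm3 in deficient replicate 5 was at 82.7 CPM, with the next at 69.0 CPM. Zbp1 in deficient replicate 4 was at 258 CPM, with the next at 189 CPM. Casp1 in WT replicate 5 was at 57.0 CPM, with the next at 62.8 CPM, and Vezt in the same library was at 14.7 CPM, with the next at 12.9 CPM.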

How the results depend on the processing

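All 9 members kept their direction and their adjusted p under 0.05 in each of the 27 alternative settings, the fits that leave out 1 library and the 2 pairs chosen after seeing the data included, with the highest adjusted p at 0.026 for Aim2. The count of members called was thus 9 to 9 without 1 library, and the count of all genes called was 7239 to 8368. Across settings the log2 fold change ran between -0.34 and -0.21 for Aim2, 0.30 and 0.52 for Ifi209 and 1.09 and 1.37 for Ifi205. The labels do not state whether libraries of the same number belong together. Same-numbered deviations correlated at -0.10 to 0.11 over all genes, which cannot settle whether they are paired. With the replicate block 9 members and 7538 of all genes were called. With the macrophage score in the fit Ifi202b, Ifi203-ps and Olfr433 did not pass, nor did Fas (-0.26, adjusted p = 0.14); the score separates the genotypes. The Vezt log2 fold change, not called in any setting, changed sign with that covariate (0.048) and in FPKM with a pseudocount of 1 (0.027), of 0.1 (0.035) and of 1 with a floor of 1 (0.027). Arhgap5 passed in 7 settings. The floor of 1 FPKM removed no gene. Depth did not limit the members; for Ifi202b, with 5 counts in WT replicate 5, it did.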
